A study of Drosophila melanogaster with 2 samples.

Results

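The nuclear genes of Drosophila melanogaster that encode proteins of the mitochondrial ribosome were examined for recovery of the transcription factor Dmrt99B at their promoters. These genes are written mRp below and were chosen by name alone, as protein-coding genes whose symbol begins with mRpL (large subunit) or mRpS (small subunit) followed by a digit in the Ensembl annotation. The pattern matched 73 genes, of which mRpL41 was left out by the rule, leaving 72 of the 13945 protein-coding genes on the chromosome arms. Of the 72, 46 belong by name to the large subunit and 26 to the small subunit. Subunit is used in this sense throughout, and a protein's place in the assembled ribosome can differ from its name.

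Whole embryos of mixed sex, aged 6 to 16 hours, were assayed by ChIP-seq, in which DNA crosslinked to a protein is recovered with an antibody and sequenced. The embryos carried a stable transgene for Dmrt99B with eGFP fused to its C-terminal end. The single group consisted of 2 biological replicates, numbered 3 and 4, and there was no untreated or wild-type group. Because whole embryos were used, the cells in which a site was occupied cannot be told apart. The deposited peak lists were a relaxed list of 30000 peaks for each replicate, a relaxed list of 30000 peaks from both replicates pooled, and a list of 7838 peaks kept by the irreproducible discovery rate (IDR), which scores whether a peak takes a similar rank in both replicates. A gene is called bound below when the summit of an IDR peak lay within 1000 bp of one of its annotated transcription start sites (TSSs).

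Mitochondria carry their own ribosomes, which translate the few messages of the mitochondrial genome into core subunits of the respiratory chain and the ATP synthase. The RNA of these ribosomes is mitochondrial, but all of their proteins are made from nuclear genes in the cytoplasm and imported. One set of these proteins descends from proteins of bacterial ribosomes, and another was added in the course of mitochondrial evolution. Dmrt99B belongs to the DM-domain family of transcription factors, whose founding member doublesex acts in sex determination.

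Of the 72 mRp genes, 19 were bound (26.4%, 95% Wilson interval 17.6% to 37.6%), against 20.1% of all protein-coding genes. The interval covers counting error over genes only and includes the share of all genes, so the count by itself does not set the family apart. A further 5 mRp genes had a summit of the relaxed pooled list alone within 1000 bp, and 48 had a summit in neither list. With relaxed summits included, 24 of 72 genes (33.3%) had a summit, against 34% of all protein-coding genes. Most mRp genes have a simple structure, and 66 of the 72 have 1 annotated TSS position. Among these 66 genes 16 were bound (24.2%), against 13.8% of the protein-coding genes with 1 TSS position. This split was chosen after the data had been seen, and the difference was not tested. The 19 bound genes had 19 distinct peaks, so that no pair of mRp genes shared one.

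The summit sequences of the strongest mRp promoters are shown because they are the 6 mRp windows among the strongest 500 peaks, and most of these summits lay in the short stretch between 2 genes. They run from 100 bp before to 100 bp after the summit, in the RefSeq sequence of the release 6 (dm6) assembly, written 5′ to 3′ along the strand of the mRp gene. The mRpS10 window is chr3R:15229433-15229633 on the plus strand. The others are on the minus strand, at chr2L:13835362-13835562 for mRpS23, chr3L:2373520-2373720 for mRpL23, chr3L:13018047-13018247 for mRpL20, chr2L:4945384-4945584 for mRpL24 and chr2L:4850474-4850674 for mRpS2. Capitals mark matches to any of 8 fixed motifs described further on, and only the windows of mRpS10 (the DM core) and mRpL23 (the E-box) hold one.
mRpS10: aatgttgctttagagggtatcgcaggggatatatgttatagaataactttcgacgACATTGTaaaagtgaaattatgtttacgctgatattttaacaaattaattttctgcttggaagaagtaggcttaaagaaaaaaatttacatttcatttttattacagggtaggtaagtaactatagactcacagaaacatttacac
mRpS23: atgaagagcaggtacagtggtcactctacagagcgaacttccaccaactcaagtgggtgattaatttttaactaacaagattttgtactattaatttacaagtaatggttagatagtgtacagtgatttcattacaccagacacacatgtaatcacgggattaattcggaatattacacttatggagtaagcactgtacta
mRpL23: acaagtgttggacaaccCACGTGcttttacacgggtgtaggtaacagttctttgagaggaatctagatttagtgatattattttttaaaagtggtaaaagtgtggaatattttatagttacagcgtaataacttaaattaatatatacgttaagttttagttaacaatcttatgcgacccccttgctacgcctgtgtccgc
mRpL20: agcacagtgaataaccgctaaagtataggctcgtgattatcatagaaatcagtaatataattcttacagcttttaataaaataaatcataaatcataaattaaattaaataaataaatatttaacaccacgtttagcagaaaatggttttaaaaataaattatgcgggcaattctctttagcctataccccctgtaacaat
mRpL24: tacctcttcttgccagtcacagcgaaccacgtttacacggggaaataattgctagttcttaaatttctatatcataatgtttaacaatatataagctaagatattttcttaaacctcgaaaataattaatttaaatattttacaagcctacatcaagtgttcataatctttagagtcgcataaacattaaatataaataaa
mRpS2: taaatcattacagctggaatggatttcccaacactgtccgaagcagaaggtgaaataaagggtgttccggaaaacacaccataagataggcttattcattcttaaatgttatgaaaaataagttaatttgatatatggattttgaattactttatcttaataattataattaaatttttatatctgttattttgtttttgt

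The strongest peaks of the family were at the small-subunit genes mRpS10 and mRpS23. Of the 26 genes named for the small subunit 9 were bound (34.6%), and of the 46 named for the large subunit 10 (21.7%). Both shares stand beside 20.1% of all protein-coding genes, and their difference was not tested. The median signal value, a score given to each peak by the authors' peak caller without a stated unit, was 596 over the 9 bound small-subunit genes and 389 over the 10 bound large-subunit genes. By the origin of their proteins, 14 of 44 genes for bacterial-type proteins were bound (31.8%) and 5 of 28 genes for proteins added in mitochondria (17.9%). These shares stand beside the same 20.1% of all protein-coding genes. In the large subunit 9 of 29 bacterial-type genes and 1 of 17 added ones were bound. In the small subunit the corresponding counts were 5 of 15 and 4 of 11. Origin was assigned by protein number and not by comparing sequences, so single genes may be misplaced. As exceptions, mRpL47 and mRpS24 were counted as bacterial-type, as relatives of bacterial proteins that carry other numbers. None of the differences by origin was tested.

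Among the small-subunit genes, mRpS10, whose bacterial relative lies in the head of the subunit, had the strongest peak of the family. Its signal value was 4159 in replicate 3 and 1945 in replicate 4, and 6093 in the pooled list, where it ranked 9. The peak ran from 15229304 to 15229768 on 3R, with its summit 132 bp upstream of the mRpS10 TSS and 125 bp from the TSS of Art3, an arginine methyltransferase gene transcribed in the opposite direction. The rank was 10 in each replicate, so the position near the top of the list did not rest on 1 replicate.

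The next was mRpS23, a gene for a protein added in mitochondria. Its signal value was 3859 in replicate 3, 1602 in replicate 4 and 5472 in the pooled list (rank 22). This summit lay 390 bp upstream of the mRpS23 TSS and only 102 bp from that of its divergent neighbour CenG1A, on 2L from 13835243 to 13835697. It was therefore closer to the partner than to the mRp gene.

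The gene mRpS2, whose bacterial relative lies between the head and body of the small subunit, had values of 1100 in replicate 3, 454 in replicate 4 and 1557 pooled (rank 498). Its summit was at 4850574 on 2L, 67 bp from the TSS of Mon1, a component of the Rab7 activation machinery. In mRpS7, for a relative of a bacterial protein of the subunit head, the values were 503 in replicate 3, 203 in replicate 4 and 697 pooled (rank 1703), and its partner was the cell cycle kinase gene Cdk1. For mRpS26 the values were 415 in replicate 3, 172 in replicate 4 and 596 pooled (rank 2068). For mRpS6, whose bacterial relative is on the platform of the small subunit, they were 392 in replicate 3, 126 in replicate 4 and 529 pooled (rank 2386). A wide gap in strength thus separated mRpS10 and mRpS23 from the other bound small-subunit genes. The remaining 3, mRpS18B, mRpS22 and mRpS31, had pooled values between 264 and 446.

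Among the large-subunit genes, mRpL23 had the strongest peak. Its relatives in bacteria and mammals lie at the exit of the tunnel through which the new protein leaves the ribosome. The signal value was 2179 in replicate 3, 968 in replicate 4 and 3148 pooled (rank 112). The peak ran from 2373394 to 2373814 on 3L, and its summit was in the 5′ UTR of mRpL23, 58 bp downstream of the nearest of its 3 TSS positions. It was the only bound mRp gene whose nearest summit was downstream of the TSS.

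A second pair of large-subunit genes had similar peaks. For mRpL20, whose bacterial relative is needed early in assembly of the large subunit, the values were 1277 in replicate 3, 517 in replicate 4 and 1782 pooled (rank 378), with the summit 119 bp from the TSS of Icmt, an enzyme that methylates prenylated proteins. For mRpL24, another protein of the tunnel exit in bacteria, they were 1170 in replicate 3, 561 in replicate 4 and 1736 pooled (rank 399), with the summit 95 bp from the TSS of betaggt-I, a subunit of a protein prenyltransferase. Next came mRpL39, the 1 bound large-subunit gene for a protein added in mitochondria, with 389 in replicate 3, 144 in replicate 4 and 529 pooled (rank 2387). It was also the only bound mRp gene with more than 1 IDR summit within 1000 bp, and its partner was the proteasome gene Prosbeta2.

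The 3 weakest bound genes were of the large subunit. The lowest was mRpL27, whose bacterial relative reaches into the catalytic centre of the ribosome, at rank 6689 in the pooled list, with signal values of 134 in replicate 3 and 64.1 in replicate 4. At mRpL33 the value was 153 in replicate 3, 72 in replicate 4 and 223 pooled, and at mRpL17 it was 237 pooled. The lowest IDR peak of all had a value of 169. The other bound large-subunit genes, mRpL34, mRpL21 and mRpL19, had pooled values of 496, 281 and 257. The summit of mRpL33 lay 616 bp upstream, in the 5′ UTR of its divergent neighbour norpA, the phospholipase C gene of phototransduction, and that of mRpL27 lay in the 5′ UTR of CG15435.

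Over all 19 bound genes the median signal value was 529 (quartiles 273 and 1647), against 427 (247 and 875) at the nearest IDR summit of all 2807 bound protein-coding genes. Of the 19, 6 had a summit among the strongest 10% of IDR peaks, which was the case for 17.4% of all bound protein-coding genes. All 6 were among the strongest 500 peaks, and the next bound mRp gene, mRpS7, ranked 1703. The cut at 500 falls just past mRpS2 (rank 498). The share of all bound genes above this cut was not counted, so it does not set the family apart.

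**Figure D1:**
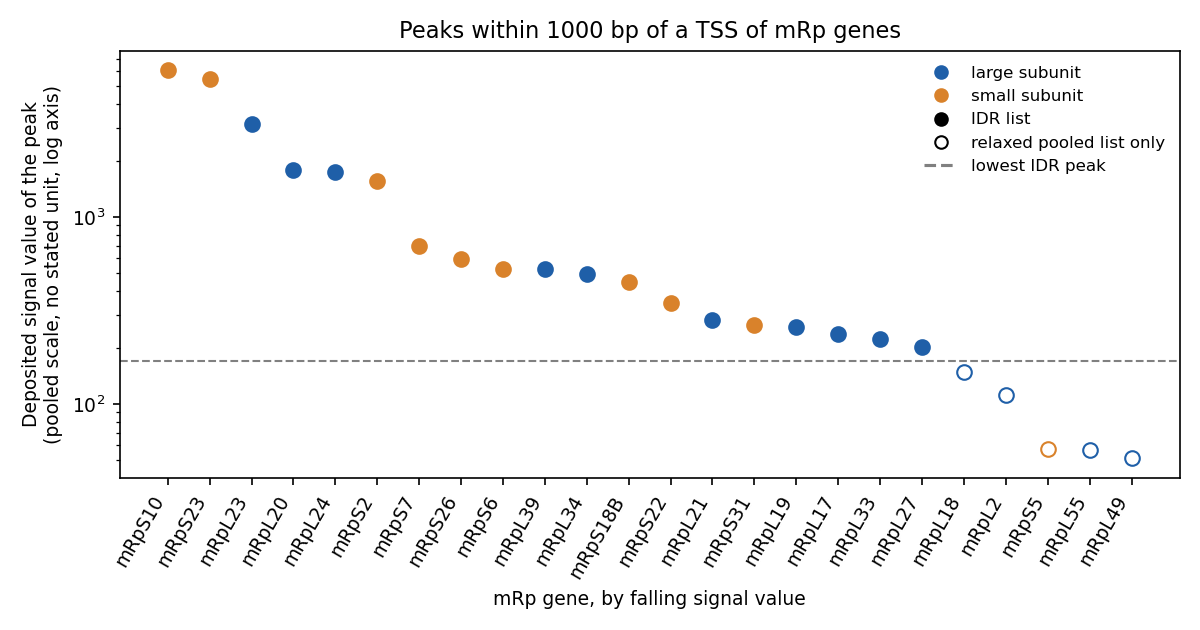
Deposited signal value (pooled scale without a stated unit, log axis) of the peak nearest to a TSS for the 19 bound mRp genes (filled) and the 5 genes with a relaxed summit only (open), by falling value, coloured by ribosomal subunit. Values fall from 6093 at mRpS10 to the lowest at mRpL27, which stays above the lowest IDR peak (dashed line, 169), and there is a step between mRpS2 (1557) and mRpS7 (697).

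The 5 genes with a relaxed summit only had values below the lowest IDR peak (169). This follows from the lists, because the IDR peaks were the strongest of the pooled list. The strongest was mRpL18, whose bacterial relative binds the small RNA of the large subunit, with a pooled value of 148 (rank 8842), 127 in replicate 3 and 30.8 in replicate 4. At mRpL2, for a relative of one of the most conserved bacterial ribosomal proteins, the values were 111 pooled, 87.8 in replicate 3 and 21.1 in replicate 4. The pooled values at mRpS5, mRpL55 and mRpL49 were 57.5, 56.6 and 51.1. A relaxed peak was found in both replicates at 4 of these 5 genes, and at mRpL49 in replicate 3 only. The gene just outside the IDR set was thus mRpL18 and the one just inside was mRpL27. The partners of mRpL18 and mRpL55 are themselves genes for mitochondrial proteins, Taz (tafazzin, which remodels cardiolipin) with its TSS 20 bp away and ATPsynD (a subunit of the ATP synthase) 95 bp away.

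No summit of either list was found within 1000 bp for 32 large-subunit genes. These were mRpL1, mRpL3, mRpL4, mRpL9, mRpL10, mRpL11, mRpL12, mRpL13, mRpL14, mRpL15, mRpL16, mRpL22, mRpL28, mRpL30, mRpL32, mRpL35, mRpL36, mRpL37, mRpL38, mRpL40, mRpL42, mRpL43, mRpL44, mRpL45, mRpL46, mRpL47, mRpL48, mRpL50, mRpL51, mRpL52, mRpL53 and mRpL54. Among them is mRpL12, whose bacterial relative forms the stalk that recruits translation factors. The 16 genes named for the small subunit and without a summit were mRpS9, mRpS11, mRpS14, mRpS16, mRpS17, mRpS18A, mRpS18C, mRpS21, mRpS24, mRpS25, mRpS28, mRpS29, mRpS30, mRpS33, mRpS34 and mRpS35. Of these, mRpS29 is the relative of a mammalian GTP-binding protein of the small subunit. Since the relaxed lists were all of 30000 peaks and read depth is unknown, a missing summit means only that no peak was listed there.

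Each replicate recovered the same peaks in nearly the same order. All 19 bound genes had a peak summit within 200 bp of their IDR summit in the relaxed list of both replicates, and 18 had one among the 7838 strongest peaks of both. The exception was mRpL17, at rank 4620 in replicate 3 and rank 11815 in replicate 4, with values of 212 and 34.7. Over the 19 genes the Spearman correlation between the ranks of the 2 replicates was 0.95, and the Pearson correlation of log2 signal values was 0.98. These are descriptions over peaks chosen for recurring in both replicates. The signal value in replicate 3 was a median of 2.47 times that in replicate 4, with a range of 2.09 to 6.11, on scales that the sources used here do not relate to each other. The highest ratio was that of mRpL17.

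**Figure D2:**
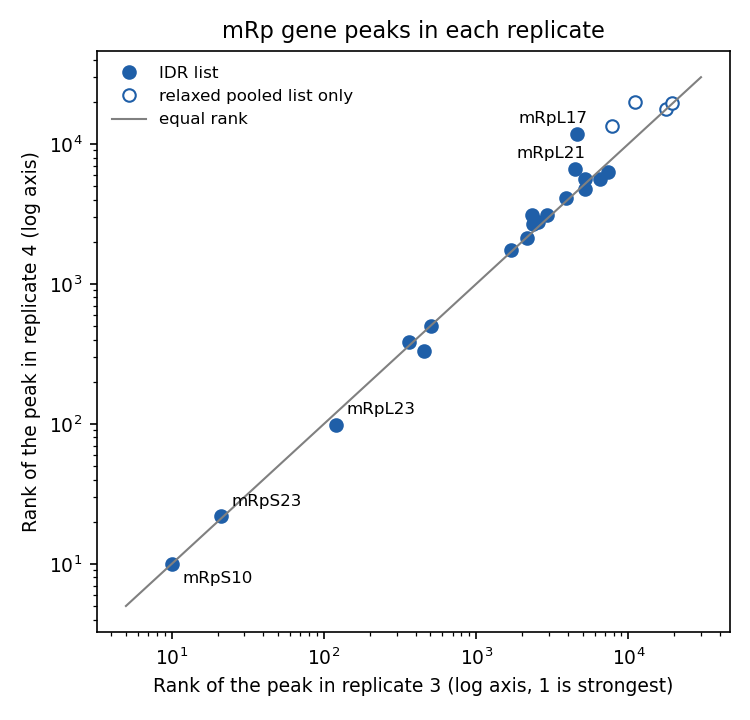
Rank of the peak in replicate 3 (horizontal) and replicate 4 (vertical), both on log axes, for the 19 bound mRp genes (filled) and the 4 genes with a relaxed summit in the pooled list that had a peak in both replicates (open). Most points lie near the line of equal rank, with mRpL17 (ranks 4620 and 11815), mRpL18 (7749 and 13356) and mRpL2 (10975 and 19796) above it.

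Nearly all bound mRp genes had a divergent promoter. A divergent partner was defined as a protein-coding gene on the other strand whose TSS lay 0 to 1000 bp upstream of a TSS of the mRp gene. By this annotation alone, 57 of the 72 mRp genes (79.2%) had such a partner, against 36.2% of all protein-coding genes. Of the 19 bound mRp genes 18 had one (94.7%), against 46.9% of all bound protein-coding genes. The exception was mRpL19, with a summit 164 bp upstream of its TSS and a pooled value of 257.

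Seen from the other side, 18 of the 57 mRp genes with a partner were bound (31.6%), against 26% of all protein-coding genes with a partner. Of the 15 mRp genes without a partner 1 was bound, against 16.8% of all protein-coding genes without one. The partners of the bound genes have varied roles. They include genes for cell division (Cdk1), protein degradation (Prosbeta2), chromatin remodelling (rept, encoding reptin), cell adhesion to the matrix (Dg, encoding dystroglycan), membrane curvature (Cip4) and RNA binding (Tudor-SN). None belonged to the lists of other mitochondrial genes examined here, but these hold only 45 of the 13945 protein-coding genes.

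The distance to the partner TSS was longer at bound than at unbound mRp genes by its median. This gap had a median of 388 bp in the 18 bound genes with a partner and 192 bp in the 39 unbound ones, while over all divergent protein-coding genes the medians were 331 bp for bound and 284 bp for unbound genes. Of 31 mRp genes with a gap of 200 to 500 bp, 16 were bound (51.6%, Wilson interval 34.8% to 68%), against 29.8% of all such protein-coding genes. With a gap under 200 bp, 2 of 22 mRp genes were bound (9.09%, interval 2.53% to 27.8%), against 18.7%. The 2 were mRpL23 and mRpL27, whose summits did not lie between the start sites. With a gap over 500 bp, 0 of 4 mRp genes were bound (interval 0% to 49%), against 28% of all such genes. These classes were drawn after the distances had been seen, and the differences were not tested. With the 7838 strongest peaks of replicate 4 in place of the IDR list, 4 of the 22 genes with short gaps had a summit within 1000 bp.

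**Figure D3:**
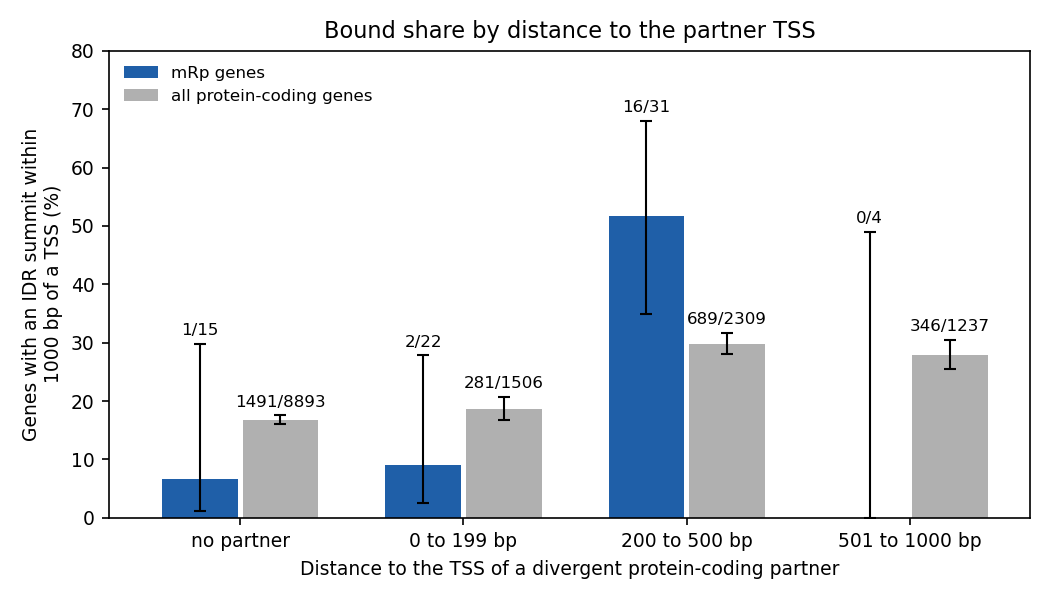
Percentage of genes with an IDR summit within 1000 bp of a TSS, for mRp genes (blue) and all protein-coding genes (grey), by distance to the TSS of a divergent partner. Bars are shares with 95% Wilson intervals for counting error over genes, and the numbers above give bound over all genes, such as 16 of 31 mRp genes at 200 to 500 bp and 2 of 22 under 200 bp.

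The summits fell at a narrow range of positions. The median was 161 bp upstream of the TSS in the bound mRp genes, at -161 bp with quartiles of -189 and -124 bp, while over all bound protein-coding genes the median was -167 bp with quartiles of -304 and -42 bp. A summit 80 to 200 bp upstream was found in 15 of the 19 bound mRp genes (78.9%) and in 28.7% of all bound protein-coding genes, a range chosen after the positions had been seen. These sets also differ in the share with a divergent partner (94.7% against 46.9%). Positions were not compared among genes with a partner alone. In 15 of the 18 pairs the summit lay between the start sites of both genes. It was nearer to the TSS of the mRp gene in 10 pairs and nearer to that of the partner in 8. Assignment of a peak to an mRp gene therefore does not say which gene of the pair it concerns. Of the 19 summits, 16 lay outside the annotated extent of any protein-coding gene and 3 in a 5′ UTR. Neither these places nor the position relative to both start sites was counted over all bound genes. They are therefore not shown to be particular to mRp genes.

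**Figure D4:**
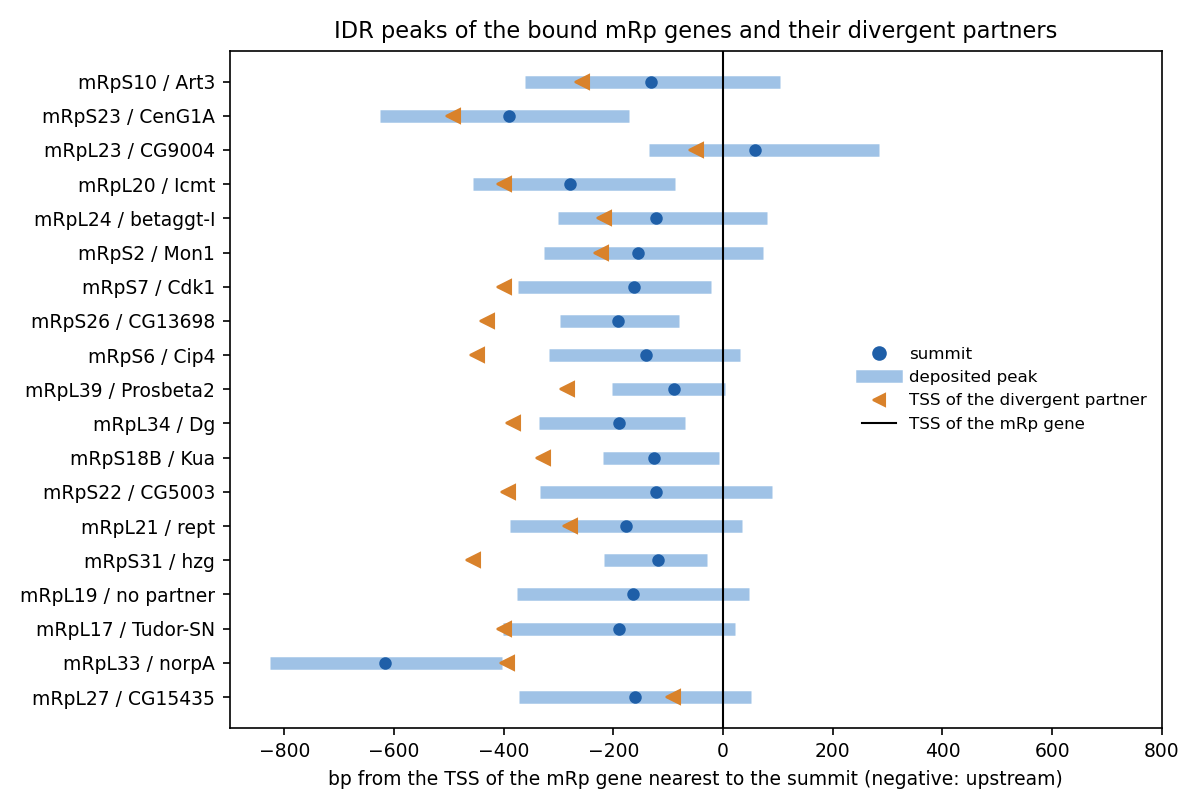
Position of the summit (blue point), the deposited peak (light bar) and the TSS of the divergent partner (orange triangle), in bp from the TSS of the mRp gene nearest to the summit (vertical line), for the 19 bound genes from the strongest (top) to the weakest. Most summits sit between the 2 start sites, with those of mRpL23, mRpL33 and mRpL27 outside.

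Of the 53 unbound mRp genes 39 had a partner, and at 4 of these 39 the partner was itself bound elsewhere. The 4 were mRpL32 with qless, mRpL53 with AGO1, mRpL22 with if, an integrin gene, and mRpL2 with FoxK, a forkhead gene. The same share was not counted over all unbound protein-coding genes with a partner.

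Of the 19 bound mRp genes, 14 were on 3L or 2L. On 3L 8 of 17 mRp genes were bound (47.1%), against 21.8% of all genes of the arm, and on 2L 6 of 12 (50%), against 20.3%. On 3R 3 of 21 were bound (14.3%), against 18.8%. On 2R 1 of 11 was bound (9.09%), against 18.9%, and on the X 1 of 11 (9.09%), against 21.8%. These differences were not tested. There was no mRp gene on chromosome 4.

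Mean GC content at the summits was lower for the mRp genes than for promoter peaks at large. From 100 bp before to 100 bp after the summit it was 29.7% ± 4.98 (SD over 19 windows) in the bound mRp genes and 34.7% ± 8.39 (SD over 2869 windows) at all IDR summits within 1000 bp of a protein-coding TSS. The mRp windows are those of the nearest summit of each bound gene, while the others include every such summit. Windows were not matched by position or by divergent partner, so the difference is not shown to be particular to mRp genes. Values in the mRp windows ran from 24.4% at mRpL19 and mRpL17 to 41.3% at mRpL33. In the 300 bp from 250 bp before to 50 bp after the 5′ end of the gene, GC content was 33.4% ± 3.75 (SD, 19 bound mRp genes) and 37% ± 6.64 (SD, 53 unbound mRp genes), while it was 39.7% ± 7.73 over the 2807 bound protein-coding genes and 39.1% ± 7.74 over all 13945 genes. The lower mean at bound than at unbound mRp genes was thus not seen when all bound genes were set beside all genes. Bound mRp promoters ran from 28% to 44.7% and unbound ones from 25.7% to 57.7%, so their ranges overlapped. No test was made.

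The 8 motifs were searched on both strands, and none was shared by the bound peaks. The sequence CAGTGTA, chosen because it led the motifs over all IDR summits in earlier results of these data, was in 0 of the 19 mRp summit windows, while it was in 5.37% of the windows at all IDR promoter peaks. It was also in 0 of 19 when the windows reached 200 bp to either side. With only 19 windows, a count of 0 is near the share of all promoter peaks and does not set the mRp peaks apart. CACTGAG, which shares the bases CACTG with the reverse complement of CAGTGTA, was in the mRpL33 window alone, against 3.03% of promoter peaks. The DM core, searched as ACAATGT and its reverse complement ACATTGT, is a short form of the sites of DM-domain proteins and was found in the mRpS10 window alone, against 3.83%. The E-box CACGTG, which Myc and related factors bind, was in the windows of mRpL23 and mRpL27 (1.85% of promoter peaks). TGCGCA, which makes up part of the site of the mammalian factor NRF-1, was in those of mRpL21 and mRpS26 (3.42%). A match does not show a bound site, and a missing match says only that these letters are not in the window.

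The most frequent of the 8 motifs in mRp promoters lay mostly near the start site. TATCGATA, the DRE sequence bound by DREF, was in the 300 bp promoter window of 15 of 72 mRp genes (20.8%), against 9.36% of all protein-coding genes. Of its 16 matches there, 14 were centred within 40 bp of the 5′ end of the gene. This placement was not counted over all genes, so it is not shown to be particular to mRp genes. It was present at 6 of 19 bound (31.6%) and 9 of 53 unbound (17%) mRp genes, while 9.87% of all bound protein-coding genes had it. The 6 bound genes were mRpL17, mRpL19, mRpL20, mRpL39, mRpS18B and mRpS23, and only the mRpL39 summit window held the match. Summit windows reached only 100 bp to either side, and most did not include the start site. GGTCACACT, the motif 1 sequence of core promoters bound by M1BP, was in 8 of 72 mRp promoters (11.1%) and 6.05% of all promoters, with 1 of the 8 bound, mRpL27. The TATA box sequence TATAAAAG was in the promoters of 2 mRp genes, mRpS9 and mRpS35 (5.69% of all promoters), neither of them bound. At the summits TATCGATA was in 1 of 19 mRp windows and 2.82% of promoter peaks, GGTCACACT in 0 and 1.19%, and TATAAAAG in 0 and 2.86%.

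Other nuclear genes for mitochondrial gene expression were counted by list. Of 15 mitochondrial aminoacyl-tRNA synthetase genes found in the annotation 1 was bound, LeuRS-m, with the summit at -921 bp from its TSS and a signal value of 2114. Of 8 genes for mitochondrial translation factors, 0 were bound. Of 11 genes for mitochondrial transcription and DNA maintenance 1 was bound, mtSSB (749), which encodes the mitochondrial single-stranded DNA binding protein. Of 9 genes for mitochondrial RNA processing 4 were bound, namely PNPase (5757), a ribonuclease, SLIRP2 (2918), SLIRP1 (1199) and RNaseZ (438), which processes tRNA ends. Of the symbols listed, ThrRS-m, mEFG2 and mtRF1 were not matched in the annotation and were not counted. The mitochondrial ribosomal protein genes named otherwise, tko and bonsai, had no IDR summit. Together 6 of 45 genes of these lists were bound (13.3%), against 20.1% of all protein-coding genes. Of the genes for cytoplasmic ribosomal proteins, 54 of 92 were bound (58.7%). None of these shares was tested against another.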

How the data were processed

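The deposited data were 4 narrowPeak lists in dm6 coordinates. A listing deposited beside them records that alignments and a further file went into the relaxed lists, and the relaxed lists into the IDR list. For the aligner, peak caller, IDR threshold and read depth, the sources used here give nothing. The deposited signal value of a peak is a score on an unstated scale, used only to describe and rank peaks within a list, apart from the ratio and correlation between replicates. The 7838 IDR peaks were the strongest of the pooled list. Per the labels, chromatin was sonicated to a size range of 200 to 800. The labels describe a GFP antibody but list dmrt99B under antibody.

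Summits were placed on the release 6 genome and the gene annotation of Ensembl release 115 with Python 3.11.15, numpy 2.4.6 and scipy 1.17.1, and drawn with matplotlib 3.10.9. For each gene the nearest summit within 1000 bp of any TSS was taken, from the IDR list or otherwise the pooled list. Replicate values are those of the strongest peak with a summit within 200 bp of that summit. Motifs were searched on both strands. Functions were tested on simulated data. With 1 group of 2 replicates and members chosen by name, no test was run, and shares are set beside all protein-coding genes. The members and lists were chosen with earlier results of these data known. Genes named with values were the 10 strongest and 3 weakest bound, the relaxed-only, those without a summit, and others said to be chosen after their values were seen, which here include mRpL34, mRpL21, mRpL19, mRpS18B, mRpS22 and mRpS31.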

Additional observations from a re-analysis of the deposited data

How the results depend on the processing

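Of 56 alternative values, 55 stayed within 1.5 times the count, or within the interval or quartiles of the value, reported above. The number of bound mRp genes was 18 with a TSS distance of 500 bp, 24 with 2000 bp, 13 with the 3919 strongest IDR peaks, 23 without replicate 3 and 21 without replicate 4, against 16.1%, 26%, 13.2%, 22.2% and 20.5% of all protein-coding genes. For counts of bound genes without 1 replicate, the 7838 strongest peaks of the other replicate took the place of the IDR list. Counting mRpL41 gave 27.4% bound. Bound genes with a partner numbered 13 of 13 with those 3919 peaks, 22 of 23 without replicate 3 and 20 of 21 without replicate 4. The count with a gap under 200 bp was 3 to 4 of 22 when either replicate was left out, and the cause was not tested. That with a gap of 200 to 500 bp was 17 of 31 in both cases. The alternatives on gaps and on genes with 1 TSS position were chosen after seeing the data. No paired analysis was possible because there was 1 group. Unknown read depth limits what a missing peak shows.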

Other observations

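Unbound mRp genes lie over 1000 bp from any IDR summit by definition. Distances were not measured for other unbound genes, so those given here do not set the family apart. The distance from the TSS to the nearest IDR summit had a median of 11297 bp over the 53 unbound mRp genes. In 5 of them it was under 2000 bp, namely mRpL32 (1324 bp), mRpL13 and mRpL55 (1463 bp each), mRpL22 (1632 bp) and mRpL12 (1934 bp). The longest distance was that of mRpS5, at 1627102 bp. Its gene lies at 24537236 to 24543534 on 3L, and its only summit within 1000 bp was the relaxed one with a pooled value of 57.5.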
